A study of Mus musculus with 16 samples.

Results

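The expression of 42 imprinted genes was examined in organoid lines from mouse pancreatic ductal adenocarcinoma. The genes were taken from a list of symbols, and each symbol matched 1 gene among the 55487 genes of the deposited tables. Organoids are epithelial cultures grown in a gel of basement membrane proteins. The 16 lines were 9 metastasis lines and 7 tumor lines from 6 mice. The labels name no driver allele or Cre line, and they give the strain as C57BL6/J for every line. Metastasis replicates 1 (mouse 1) and 6 (mouse 6) came from the liver, replicates 2 (mouse 3), 3 (mouse 4) and 9 (mouse 2) from the peritoneum, replicates 4 (mouse 5) and 7 (mouse 6) from the diaphragm, replicate 5 (mouse 5) from the lung and replicate 8 (mouse 6) from the ovary. Tumor replicates 1 to 5 came from mice 1 to 5, and tumor replicates 6 and 7 both came from mouse 6. All lines were kept in Matrigel under 1 medium with EGF, FGF-10, noggin, R-spondin, gastrin, nicotinamide, B27 supplement and an inhibitor of TGF-beta receptor kinases, so growth factor supply was shared by the groups. A line is a cultured derivative and lines of 1 mouse are not separate animals.

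An imprinted gene is expressed mainly from the copy inherited from 1 parent, usually under the control of DNA methylation that the germ line sets on 1 parental copy. Imprinted genes lie in clusters under shared control regions, and a cluster usually holds maternally expressed and paternally expressed genes side by side, often with a long noncoding RNA. Many act on fetal growth, placental function and metabolism, and many are switched down after birth. RNA levels from these tables do not separate the parental copies, so what follows concerns the total level of each gene.

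Start sites of 5 of the lower genes are shown first, because the results below turn on which start was used (Grb10), on genes that share a start region (Peg3 and Usp29) and on a gene with no reads in metastasis lines (Dio3os). The sequences are RefSeq promoter windows on build GRCm38.p6, from 250 bases before to 50 bases after the start, read 5′ to 3′ on the strand of the gene. Capitals mark CpG dinucleotides, the sites at which imprints are carried as DNA methylation, which was not measured here.
Grb10 upstream start, chr11:12037371-12037670, minus strand: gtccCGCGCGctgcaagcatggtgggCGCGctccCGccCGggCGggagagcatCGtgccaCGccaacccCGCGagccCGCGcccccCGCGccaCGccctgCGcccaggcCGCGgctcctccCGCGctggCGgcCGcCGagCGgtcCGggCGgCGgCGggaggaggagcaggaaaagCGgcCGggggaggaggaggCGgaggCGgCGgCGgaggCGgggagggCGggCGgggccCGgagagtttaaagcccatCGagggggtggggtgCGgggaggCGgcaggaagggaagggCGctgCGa
Grb10 downstream start, chr11:12027922-12028221, minus strand: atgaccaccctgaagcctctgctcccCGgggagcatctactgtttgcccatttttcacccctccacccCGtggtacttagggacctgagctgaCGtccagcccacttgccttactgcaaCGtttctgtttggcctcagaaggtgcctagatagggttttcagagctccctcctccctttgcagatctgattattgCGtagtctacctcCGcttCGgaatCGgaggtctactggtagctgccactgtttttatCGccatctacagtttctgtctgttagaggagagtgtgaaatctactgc
Dio3os, chr12:110278019-110278318, minus strand: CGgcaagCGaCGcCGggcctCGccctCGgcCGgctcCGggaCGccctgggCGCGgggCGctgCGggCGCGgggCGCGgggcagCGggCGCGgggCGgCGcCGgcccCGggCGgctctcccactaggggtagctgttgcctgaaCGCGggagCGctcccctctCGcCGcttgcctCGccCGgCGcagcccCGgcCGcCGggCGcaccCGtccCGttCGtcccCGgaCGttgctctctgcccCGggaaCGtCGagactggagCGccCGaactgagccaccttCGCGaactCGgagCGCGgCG
Meg3, chr12:109540746-109541045, plus strand: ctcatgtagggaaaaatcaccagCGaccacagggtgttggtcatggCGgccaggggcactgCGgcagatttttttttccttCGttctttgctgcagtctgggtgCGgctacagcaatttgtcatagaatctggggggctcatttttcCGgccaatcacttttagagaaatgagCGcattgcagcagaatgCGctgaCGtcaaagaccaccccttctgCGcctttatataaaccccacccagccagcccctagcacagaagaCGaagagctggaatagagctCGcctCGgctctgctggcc
Peg3 (shared with Usp29), chr7:6730370-6730669, minus strand: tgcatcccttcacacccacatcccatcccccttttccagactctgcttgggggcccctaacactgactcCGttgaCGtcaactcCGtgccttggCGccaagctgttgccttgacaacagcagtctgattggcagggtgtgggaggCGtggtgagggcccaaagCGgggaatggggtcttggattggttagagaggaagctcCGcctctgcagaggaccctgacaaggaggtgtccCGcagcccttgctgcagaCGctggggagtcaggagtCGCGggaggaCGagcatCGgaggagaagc
Snrpn, chr7:60005150-60005449, minus strand: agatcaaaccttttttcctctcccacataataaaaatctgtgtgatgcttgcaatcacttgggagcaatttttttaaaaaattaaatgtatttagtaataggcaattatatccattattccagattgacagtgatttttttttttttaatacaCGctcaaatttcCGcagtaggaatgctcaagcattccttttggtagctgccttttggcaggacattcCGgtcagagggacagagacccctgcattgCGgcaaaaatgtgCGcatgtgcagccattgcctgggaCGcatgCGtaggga

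The upstream Grb10 window held 45 CpG and the Dio3os window 53, while the median over all 32851 windows of the RefSeq table was 7. The downstream Grb10 window held 9, the Meg3 and Peg3 windows 13 each and the Snrpn window 7. The Peg3 and Usp29 windows lie on opposite strands and share 263 bases. The letters TGCCGC, the core that the imprint-protecting zinc finger protein ZFP57 is known to bind when methylated, were searched on both strands. They occurred in the upstream Grb10, Meg3 and Snrpn windows shown and not in the downstream Grb10, Dio3os and Peg3 windows. Meg3 has 1 further window, with 1 CpG, and Snrpn 3 further windows, with 2 to 4 CpG, and none of these holds the letters. The window of Rian, which is not shown, holds 0 CpG and no such letters. Over the table, 11.6% of windows held them. Windows were found for 35 of the 42 genes, and 12 of their 53 windows held the letters.

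Library totals ran from 24624420 to 49965492 expected counts. The share of counts in genes that collect ribosomal RNA reads (CT010467.1, AY036118 and Lars2) was highest in metastasis replicate 4, at 72.7%, followed by 29.9% in tumor replicate 2. After scaling, the library of metastasis replicate 4 was 7743780 counts, against 38050529 to 57428703 in the other metastasis lines. A level of 0 in metastasis replicate 4, as given below for several genes, is therefore a looser bound than a 0 in the others. Duct and epithelial markers summed to 4517 to 8999 CPM (counts scaled to a common library size with TMM factors) in metastasis lines and 4462 to 6446 CPM in tumor lines, with all 8 markers above 1 CPM. All 9 fibroblast, 9 islet and neuroendocrine, and 7 acinar markers stayed under 1 CPM in every line, and their sums were at most 0.904, 0.210 and 0.434 CPM in metastasis lines and 0.306, 0.154 and 0.139 CPM in tumor lines. Immune marker sums were 2.07 to 5.27 CPM in metastasis lines and 1.51 to 4.54 CPM in tumor lines, and endothelial sums 0.333 to 1.81 and 0.207 to 0.667 CPM. Of the 4 mesothelial markers 2 stayed under 1 CPM, and the sum (308 to 756 CPM in metastasis lines, 164 to 1134 CPM in tumor lines) came mostly from Msln. Of the 5 hepatocyte markers, Ttr reached the highest level, and their sum was 0.226 to 6.51 CPM in metastasis lines and 6.65 to 112 CPM in tumor lines. The sum of the tumor lines came mostly from Ttr. Apoa1 went the other way, with up to 2.58 CPM in metastasis lines (replicate 2) and up to 0.373 CPM in tumor lines (replicate 6). The difference in Ttr moves with stage, and its part in the results below was not tested. In such bulk samples fewer cells with a gene on and less RNA per cell cannot be told apart. Tumor replicate 6 stood apart from the other tumor lines. It was the lowest tumor line for 15 of the 26 imprinted genes tested, and the highest for Slc22a18, Phlda2, Blcap, Zrsr1 and H13. The share of all genes for which it was the lowest was not computed, so the 15 has no base to be set against. Over all genes, 2132 were lower and 1778 higher in metastasis lines without tumor replicate 6, against 1545 and 1026 with it. Results without that line are therefore also given for some genes, but not for all whose values it sets apart.

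Metastasis lines had lower levels of a group of imprinted genes from several chromosomes than tumor lines of the same mice. In edgeR's quasi-likelihood test with mouse as a term, 26 of the 42 genes passed the filter on low counts, 9 of them were lower at an adjusted p below 0.05 and 3 were higher. Over all 15573 genes tested, 9.92% were lower and 6.59% higher. The 9 were Grb10, Meg3, Rian, Dio3os, Peg3, Usp29, Mkrn3, Snrpn and Airn. Of them 7 were more than 8-fold lower, where 1.26% of all genes were, or 196 of the 1545 genes called lower. All but Airn were lower in 6 of 6 mice. That agreement was common among all genes called lower (1315 of 1545, which is 8.44% of all genes tested). The 3 higher genes were Phlda2, Mest and H13. The median log2 fold change of the 26 was -0.35, beside -0.02 for all genes (unaffected by the value given to Dio3os, which had no reads in metastasis lines). Genes that pass the filter only through 1 group must differ, so these figures describe the 26 and not the list. The same test without a filter holds all 42 genes. There 14 were lower, where 5.04% of all genes were, and 3 were higher, where 3.84% were. The 14 were all of the 9 but Airn (log2 fold change -1.05, adjusted p = 0.0522), and Rtl1, Mirg, Dio3, Zim1, Ndn and Peg12. Both maternally expressed genes (Grb10, Meg3, Rian, Mirg, Zim1) and paternally expressed genes (Peg3, Usp29, Snrpn, Mkrn3, Ndn, Peg12, Rtl1, Dio3) were among them.

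**Figure D1:**
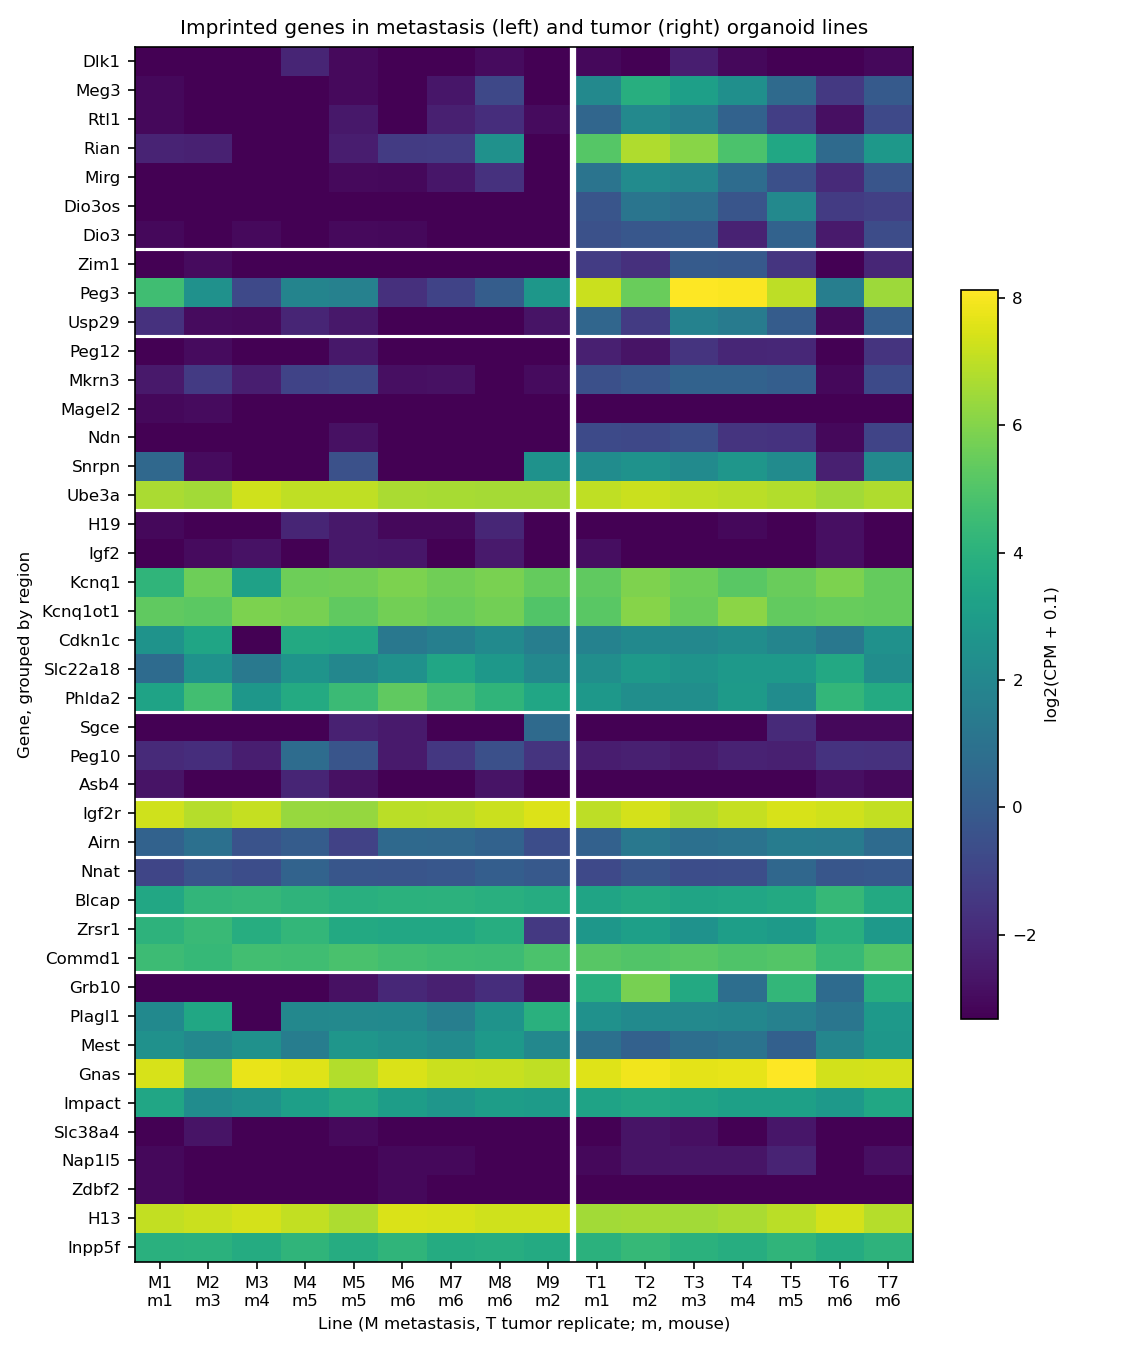
Level of the 42 imprinted genes (rows, grouped by region, white lines between groups) in each line (columns) as log2(CPM + 0.1); M columns are the 9 metastasis lines, T columns the 7 tumor lines, and m gives the mouse. The Meg3, Rian, Dio3os and Peg3 rows are darker in metastasis lines and in tumor replicate 6 than in the other tumor lines, while Gnas, H13, Igf2r and Ube3a are bright in every column.

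**Figure D2:**
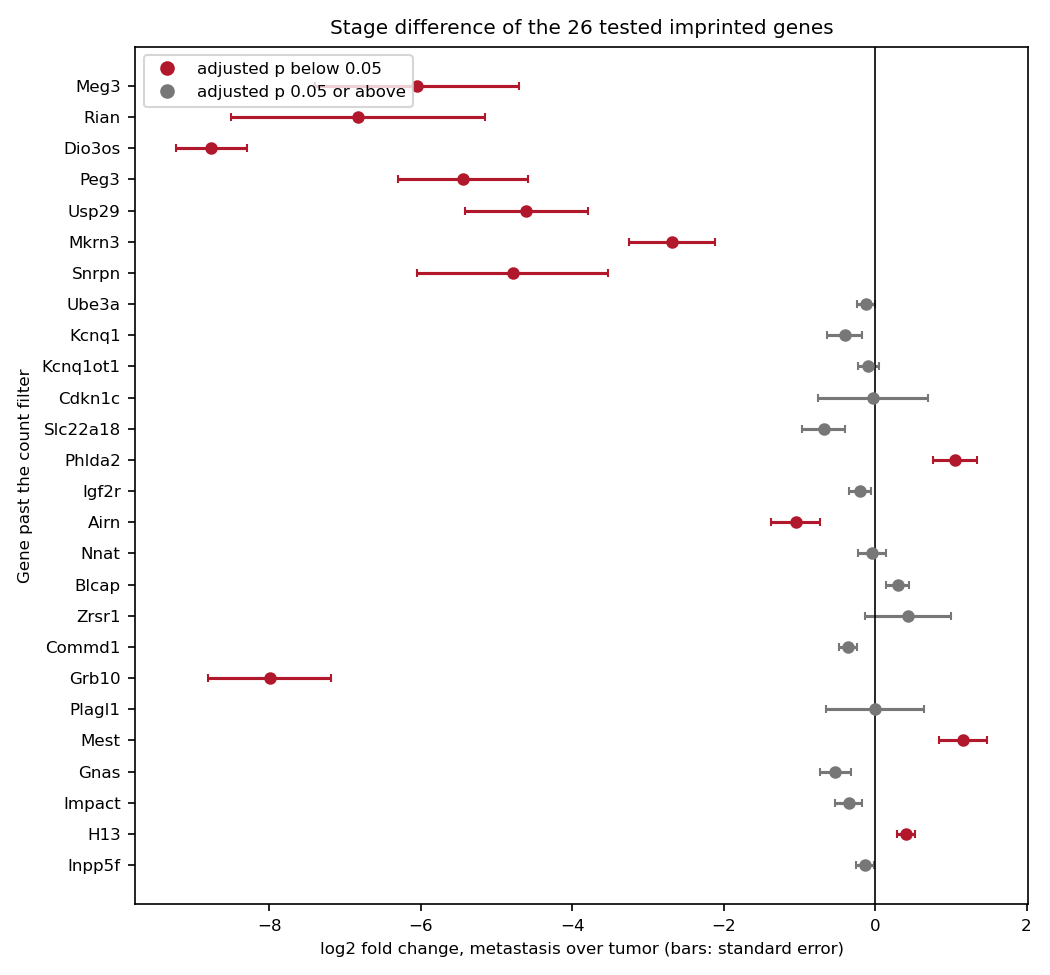
Log2 fold change of metastasis over tumor lines (points) for the 26 imprinted genes past the count filter, in region order. Bars are its standard error, derived from the fold change and the F statistic. Red points had an adjusted p below 0.05 in edgeR. Grb10, Rian, Meg3, Peg3, Snrpn and Usp29 lie between -4.60 and -7.99, the 3 increases lie between 0.41 and 1.16, and the point of Dio3os is a fitted value for a gene at 0 in every metastasis line.

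Grb10, an adaptor that binds insulin and IGF1 receptors and restrains their signalling, had the lowest adjusted p of the imprinted genes. Its gene spans chr11:11930508-12038683 on the minus strand. It was at 0 CPM in metastasis replicates 1 to 4, and at 0.0437, 0.140, 0.102, 0.184 and 0.0252 CPM in replicates 5 to 9. In tumor replicates 1 to 7 it was at 14.6, 55.4, 12.2, 1.64, 18.998, 1.51 and 14.2 CPM. Every metastasis line was below every tumor line, and tumor replicates 4 and 6 were the low tumor lines. The gene fell by 7.99 on the log2 scale (SE 0.81, edgeR adjusted p = 0.0003) and was lower in 6 of 6 mice. It passed under all alternatives run, with a highest adjusted p of 0.0073.

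The Grb10 reads that remained in metastasis lines were assigned to another transcript. Grb10-201, whose start lies in the upstream CpG-rich window printed above, had 0 counts over the 9 metastasis lines and 4248 counts over the 7 tumor lines, where it made up 86.3% to 100% of the transcripts. Grb10-203, whose start lies at the downstream window, had 21 counts over the metastasis lines (5 lines with at least 1 count) and 121 over the tumor lines, where its share was at most 4.72%. Transcript counts are the authors' estimates from reads that both transcripts mostly share, and those of metastasis lines rest on few reads. In mouse brain the downstream starts are known for paternal expression, and the upstream start for maternal expression in most other tissues.

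The Dlk1-Dio3 region on chromosome 12 had 3 tested genes, all lower (Meg3 lies at chr12:109541001-109571726 on the plus strand). Meg3, Rian and Mirg are noncoding RNAs that are expressed from the maternal chromosome, and Rian and Mirg carry small nucleolar RNAs and microRNAs. Rian was at 0.122, 0.104, 0, 0, 0.0874, 0.301, 0.306, 5.41 and 0 CPM in metastasis replicates 1 to 9, against 34.5, 108, 67.3, 29.9, 11.4, 1.47 and 6.89 CPM in tumor replicates 1 to 7. Metastasis replicate 8, from the ovary, was the only metastasis line above tumor replicate 6, and without that tumor line the groups do not overlap. Rian fell by 6.82 on the log2 scale (SE 1.67, edgeR adjusted p = 0.0197). The call ended when tumor replicate 1, 3 or 5 or metastasis replicate 1 or 2 was left out (adjusted p 0.0529 to 0.0680, and at most 0.0897 over all alternatives). Meg3 was at 0 to 0.450 CPM in metastasis lines with a median of 0, and at 0.275 to 14.4 CPM in tumor lines with a median of 4.05. It fell by 6.05 (SE 1.34, edgeR adjusted p = 0.0134) and passed when any single line was left out, with a highest adjusted p of 0.0638 over all alternatives. Mirg, below the filter, had 13 counts in metastasis lines and 555 in tumor lines.

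Dio3os, a noncoding RNA that starts beside Dio3 on the opposite strand, had 0 counts in all 9 metastasis lines and 445 over the tumor lines. It was at 0.707, 2.06, 1.73, 0.712, 4.03, 0.294 and 0.344 CPM in tumor replicates 1 to 7. With 3 counts set as the floor for the summed metastasis lines, it was 163-fold lower there, and the 95% counting interval reached down to 132-fold. Tumor replicate 5 alone gave 203 of the 445 tumor counts. The stage difference had an edgeR adjusted p of 0.0043. Its highest line, tumor replicate 5, was only the fifth highest for Rian. Dio3, the deiodinase that inactivates thyroid hormone, had 4 counts in metastasis lines and 190 in tumor lines, and Rtl1, a protein derived from a retrotransposon, 17 and 407. In the test without a filter the log2 fold changes were -5.27 (SE 0.61) for Dio3 and -4.25 (SE 0.87) for Rtl1, with edgeR adjusted p of 2.17e-05 and 0.0039. Dlk1, a membrane protein related to Notch ligands that is abundant in fetal tissue, had 3 and 8 counts over the groups and was close to absent in both. Meg3 and Rian varied together over the lines (Pearson r = 0.98 over 16 lines, 0.90 over the 9 metastasis lines and 0.99 over the 7 tumor lines), and lines of 1 mouse are part of that spread. The value over 16 lines includes the stage difference of both genes. Among metastasis lines, replicate 8 had 17 Meg3 and 206 Rian counts, and each other line at most 3 and 15. The correlation without replicate 8 was not computed.

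The Peg3 region on chromosome 7 was lower as well. Peg3, a paternally expressed zinc finger protein (chr7:6703892-6730431, minus strand), was at 24.7, 5.47, 0.475, 3.49, 3.12, 0.201, 0.387, 0.946 and 6.48 CPM in metastasis replicates 1 to 9, against 147, 45.2, 276, 265, 125, 2.92 and 87.9 CPM in tumor replicates 1 to 7. Tumor replicate 6 lay among the metastasis lines, and the other 6 tumor lines were all above them. Peg3 fell by 5.44 on the log2 scale (SE 0.86, edgeR adjusted p = 0.0037) and was lower in 6 of 6 mice. Usp29, a ubiquitin protease gene that starts from the same region on the other strand, was at 0 to 0.209 CPM in metastasis lines with a median of 0.0261 and at 0.0196 to 3.27 CPM in tumor lines with a median of 0.976. It fell by 4.60 (SE 0.81, edgeR adjusted p = 0.0054). Its r with Peg3 was 0.95 over the 16 lines, a value that includes the stage difference of both genes. Within stages r was 0.98 over the tumor lines and 0.83 over the metastasis lines, where Usp29 had at most 12 counts per line. The maternally expressed zinc finger gene Zim1 had 1 count in metastasis lines and 130 in tumor lines, and in the test without a filter a log2 fold change of -5.84 (SE 0.72, edgeR adjusted p = 4.28e-05).

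In the Snrpn region, also on chromosome 7, the paternally expressed genes Snrpn and Mkrn3 were lower, and Ube3a did not pass the test. Snrpn (chr7:59982495-60140219, minus strand) encodes a spliceosome protein, and its transcription unit carries the control region of the cluster. It was at 1.38, 0.0261, 0, 0, 0.611, 0, 0, 0 and 5.55 CPM in metastasis replicates 1 to 9, against 4.59, 5.68, 4.32, 6.36, 4.52, 0.0980 and 4.13 CPM in tumor replicates 1 to 7. Metastasis replicate 9, from the peritoneum of mouse 2, was at the level of the tumor lines, and tumor replicate 6 at that of most metastasis lines. Snrpn fell by 4.79 on the log2 scale (SE 1.26, edgeR adjusted p = 0.0257), with differences of -0.03 in mouse 2 and -7.14 in mouse 4. The call ended without the mouse term (-2.30, adjusted p = 0.203, the highest over all alternatives), with counts summed per mouse and stage (0.0839), with the ribosomal RNA share as a covariate (0.0598), without mouse 3, 4, 5 or 6 (0.0534 to 0.0828), and when tumor replicate 3, 4 or 5 or metastasis replicate 2 or 3 was left out (0.0514 to 0.0648). Gm38393, a gene model that overlaps Snrpn and shares its reads, was also highest there among metastasis lines, with 3.84 CPM in metastasis replicate 9, at most 0.679 CPM in the other metastasis lines and 0.294 to 10.5 CPM in tumor lines. The sum of Snrpn, Snurf and Gm38393 was 9.48 CPM in metastasis replicate 9 and 16.5 CPM in the tumor line of the same mouse.

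Mkrn3, a ubiquitin ligase gene known for its part in the timing of puberty, was at 0.0252 CPM in metastasis replicate 9 and at 0 to 0.459 CPM in the metastasis lines as a whole, against 0.0196 to 1.10 CPM in tumor lines. It fell by 2.68 on the log2 scale (SE 0.57, edgeR adjusted p = 0.0107, and at most 0.0512 over all alternatives). Ndn, a growth suppressor of postmitotic neurons, had 2 counts in metastasis lines and 113 in tumor lines, and Peg12 had 4 and 45. Without a filter these were log2 fold changes of -5.32 (SE 0.77) and -3.45 (SE 0.82), with edgeR adjusted p of 0.0002 and 0.0108. Magel2, also paternally expressed, had 2 counts in metastasis lines and 0 in tumor lines. Ube3a, a ubiquitin ligase imprinted in neurons, was at 112 ± 23.1 CPM in metastasis lines and 121 ± 17.9 CPM in tumor lines (SD, n = 9 and 7), a log2 fold change of -0.12 (SE 0.12, edgeR adjusted p = 0.517).

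**Figure D3:**
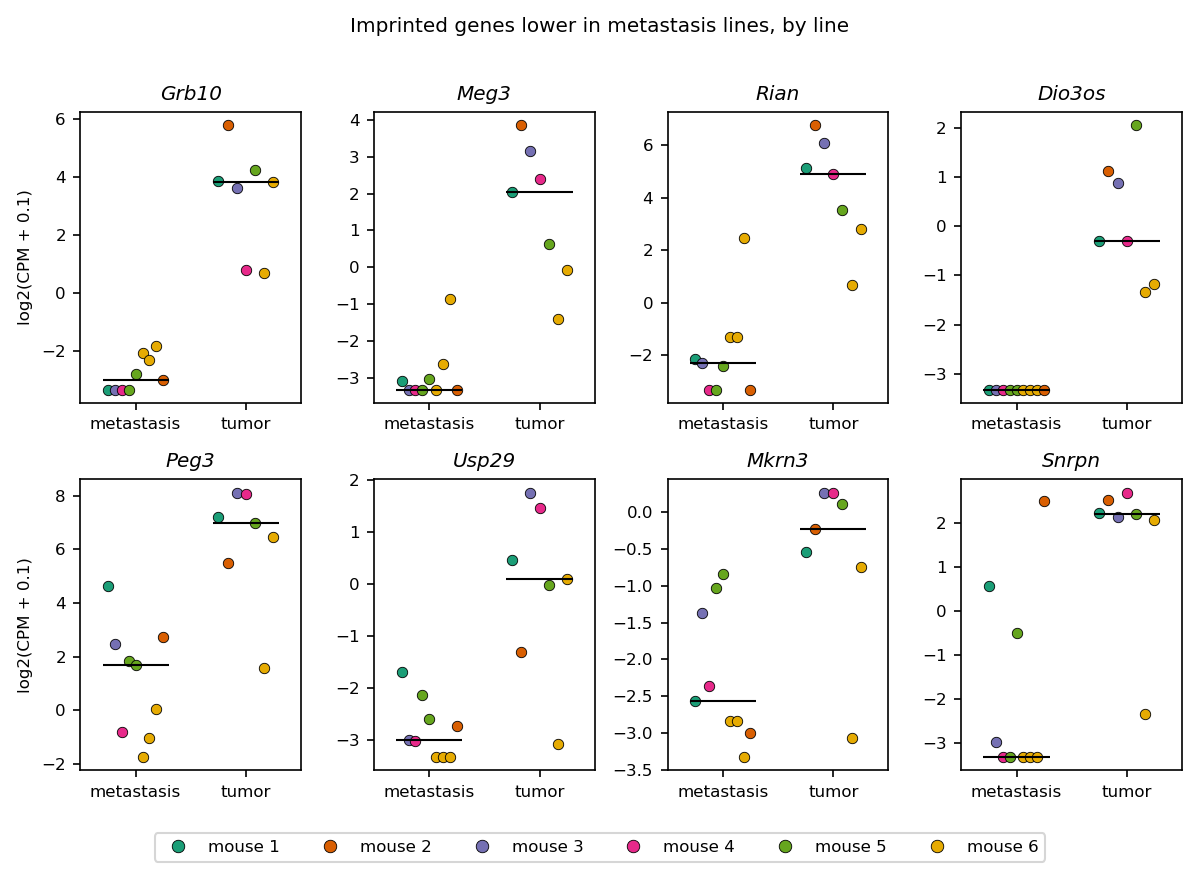
Level of 8 imprinted genes as log2(CPM + 0.1) in metastasis lines (left) and tumor lines (right); each point is 1 line, coloured by mouse, and the bar is the median. Grb10 and Dio3os do not overlap between the groups, tumor replicate 6 of mouse 6 is the low tumor point of Peg3, Mkrn3 and Snrpn, and metastasis replicate 9 of mouse 2 is the high metastasis point of Snrpn.

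Among the 26 tested imprinted genes, Grb10 and Dio3os were the 2 whose metastasis lines all lay below all tumor lines, and 0.751% of all tested genes did so. Of those under the filter, Dio3 also had its highest metastasis line (0.0238 CPM) below its lowest tumor line (0.0784 CPM). With tumor replicate 6 set aside, a choice made after its values were seen, 8 of the 26 did (Meg3, Rian, Dio3os, Peg3, Usp29, Mkrn3, Commd1 and Grb10), and 4.05% of all tested genes, as did Rtl1, Mirg, Dio3, Zim1 and Ndn under the filter. That line and tumor replicate 7 came from the same mouse. Snrpn was 42.1 times, Peg3 30.1 times, Grb10 9.40 times and Rian 4.68 times higher in replicate 7 than in replicate 6, while Dio3os was 1.17 times higher. Without replicate 6 the log2 fold changes were -8.70 for Grb10, -7.09 for Meg3, -7.82 for Rian, -5.62 for Peg3 and -4.88 for Snrpn, each past the threshold.

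Genes beside these regions that are in none of the imprinted lists were compared to see whether the differences reached past the imprinted genes. On either side of the Dlk1-Dio3 region, none of the 3 nearest such protein-coding genes past the filter passed the test. Their log2 fold changes were -0.41 to -0.13 on the Dlk1 side (Slc25a47, Wars, Wdr25) and -0.16 to 0.27 on the Dio3 side (Ppp2r5c, Dync1h1, Hsp90aa1), at distances of 166023 to 596008 bases. None passed around the Snrpn region either, where they lay 1421841 to 3266274 bases away, with values of -0.41 to 1.34 (Herc2, Nipa1, Nipa2, Klf13, Trpm1, Mtmr10). Atp10a, which lies nearer and is in the list of other imprinted genes, had a log2 fold change of -1.03 (SE 0.47, edgeR adjusted p = 0.147). Around Grb10, Ddc, the next gene and also in the list of other imprinted genes, had a log2 fold change of 0.44 (SE 0.61, edgeR adjusted p = 0.644). Of the genes in no imprinted list, Fignl1 (121546 bases away, -0.07, SE 0.14) and Cobl (197925 bases away, -0.59, SE 0.54) did not pass. Farther out Upp1, a uridine phosphorylase, was higher by 0.87 and Egfr, the EGF receptor, lower by 0.67 on the log2 scale (edgeR adjusted p = 0.0320 and 0.0352). Around Peg3, where the neighbours are other zinc finger genes, Zfp28 (-1.24, SE 0.34), Zfp78 (-1.22, SE 0.32), Zfp773 (-1.99, SE 0.60) and Zfp418 (-0.56, SE 0.17) fell with edgeR adjusted p of 0.0257 to 0.0439, and Zfp667 (-1.24, SE 0.42) and Zfp954 (-0.29, SE 0.14) did not pass. Beside the other regions with a called gene, Tnni2 near Igf2 rose by 1.15 (SE 0.26) and Agpat4 near Igf2r by 1.00 (SE 0.20), with edgeR adjusted p of 0.0143 and 0.0087. Copg2, which adjoins Mest and is in the list of other imprinted genes, fell by 0.48 (SE 0.12, edgeR adjusted p = 0.0216). Podxl, a sialomucin gene near Mest, fell by 2.11 (SE 0.57, edgeR adjusted p = 0.0283). Near H13, Sox12, a transcription factor gene, fell by 2.69 (SE 0.56) and Bcl2l1, an inhibitor of apoptosis, by 0.61 (SE 0.13), with edgeR adjusted p of 0.0107 and 0.0113.

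**Figure D4:**
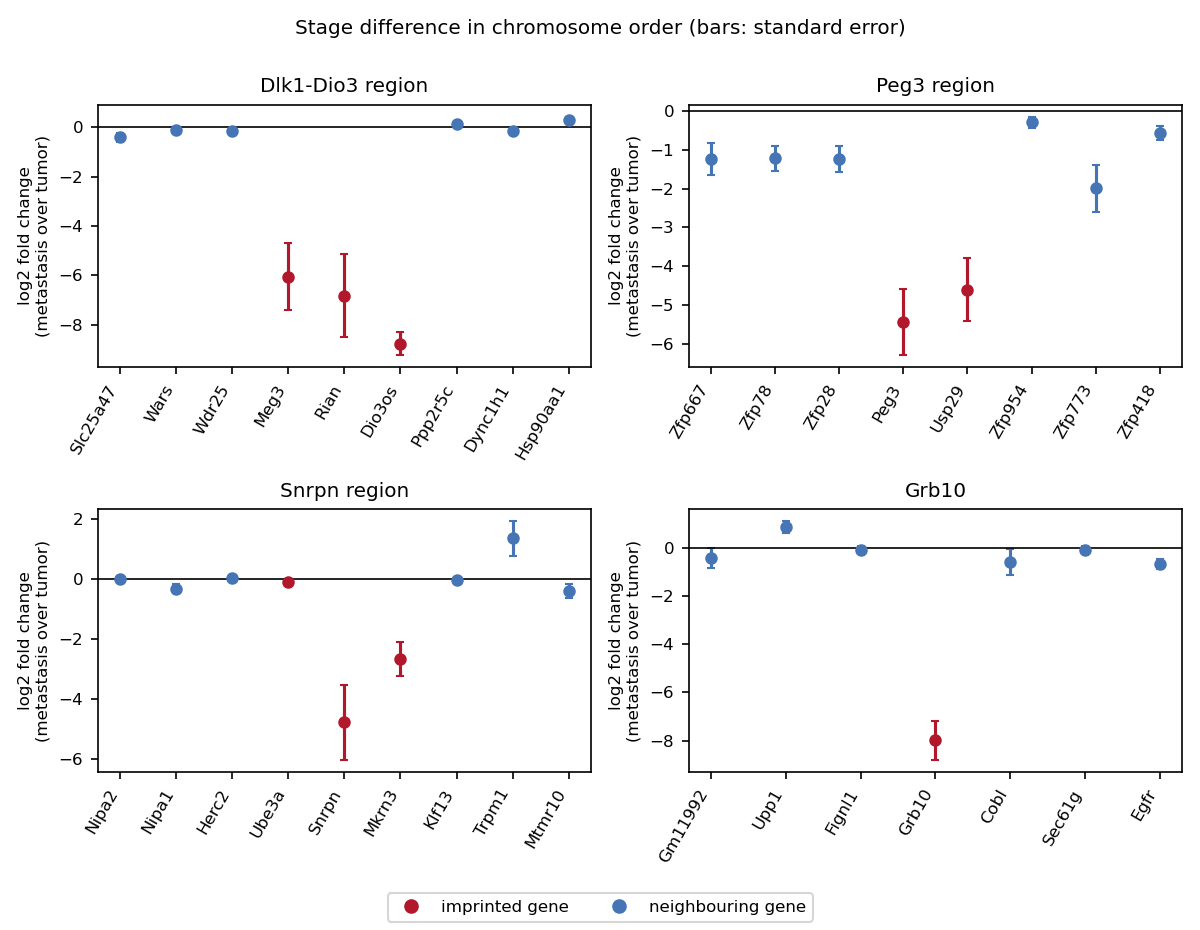
Log2 fold change of metastasis over tumor lines at 4 loci, in chromosome order. Tested imprinted genes are red, and the 3 nearest tested protein-coding genes on each side that are in no imprinted list are blue. Bars are its standard error, derived from the fold change and the F statistic. The flanking genes of Dlk1-Dio3 and Grb10 lie between -0.67 and 0.87, while Meg3, Rian and Grb10 lie between -6.05 and -7.99; the point of Dio3os is a fitted value for a gene at 0 in every metastasis line.

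Among genes with smaller differences, Airn, the noncoding RNA antisense to Igf2r, was at 0.371 to 1.75 CPM in metastasis lines with a median of 1.10 and at 1.09 to 2.66 CPM in tumor lines with a median of 1.96. It fell by 1.05 on the log2 scale (SE 0.32, edgeR adjusted p = 0.0445) in 5 of 6 mice. This call was narrow, and it ended when any line but tumor replicate 1, tumor replicate 7 or metastasis replicate 1 was left out (adjusted p 0.0505 to 0.142, and at most 0.156 over all alternatives). Airn and Igf2r overlap on opposite strands, and their reads cannot be told apart if the counting ignored strand. Igf2r, the receptor that clears IGF2 and sorts lysosomal enzymes, was at 128 ± 33.4 CPM in metastasis lines and 145 ± 22.1 CPM in tumor lines (SD, n = 9 and 7; log2 fold change -0.19, SE 0.14, edgeR adjusted p = 0.378). Commd1, a regulator of copper and NF-kappa-B, was at 20.4 to 29.1 CPM in metastasis lines and 20.8 to 36.0 CPM in tumor lines. Its log2 fold change was -0.35 (SE 0.12, edgeR adjusted p = 0.0545), and -0.44 with an adjusted p of 0.0064 without tumor replicate 6.

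Phlda2, Mest and H13 were higher in metastasis lines, by smaller amounts. Phlda2, known as a restraint on placental growth, was at 6.65 CPM at the lowest, 18.1 CPM at the median and 39.8 CPM at the highest in metastasis lines, against 4.67, 6.84 and 18.9 CPM in tumor lines. It rose by 1.06 on the log2 scale (SE 0.29, edgeR adjusted p = 0.0308). Mest, a membrane protein of the hydrolase family, was at 5.52, 3.95, 5.38, 2.75, 6.46, 5.38, 4.46, 6.93 and 4.00 CPM in metastasis replicates 1 to 9, against 1.78, 1.07, 1.68, 1.98, 1.05, 3.73 and 6.61 CPM in tumor replicates 1 to 7. All metastasis lines lay above the tumor lines of mice 1 to 5, and both tumor lines of mouse 6 lay within their range. It rose by 1.16 (SE 0.32, edgeR adjusted p = 0.0302) in 6 of 6 mice. H13, an intramembrane protease of signal peptides, rose by 0.41 (SE 0.12, edgeR adjusted p = 0.0339) and averaged 151 ± 22.3 CPM in metastasis lines and 113 ± 25.9 CPM in tumor lines (SD, n = 9 and 7). The call of Phlda2 ended without tumor replicate 2, 3, 5 or 7 or metastasis replicate 2, 6 or 9, that of Mest without tumor replicate 1, 2, 3, 4 or 5 or metastasis replicate 1, 2, 3 or 9, and that of H13 without tumor replicate 1, 2, 3, 4 or 7 or metastasis replicate 1, 2, 3, 6, 7 or 9, with adjusted p up to 0.0921, 0.0867 and 0.0897. Without the mouse term Phlda2 (adjusted p = 0.0587) and Mest (0.0786) did not pass, and with counts summed per mouse and stage Phlda2 (0.0590) and H13 (0.0525) did not. The highest adjusted p over all alternatives were 0.188, 0.265 and 0.711. The share of the main H13 transcript was 75.7% to 84.0% in metastasis lines and 75.2% to 83.2% in tumor lines.

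Some imprinted genes were lost in 1 line only. In metastasis replicate 3, from the peritoneum of mouse 4, Cdkn1c and Plagl1 were both at 0 CPM. Cdkn1c, an inhibitor of cyclin-dependent kinases, was at 2.29 to 12.4 CPM in the other metastasis lines and at 4.75 CPM in the tumor line of mouse 4. Plagl1, a zinc finger factor that restrains growth, was at 2.91 to 15.2 CPM in the other metastasis lines and at 3.87 CPM in that tumor line. Near Cdkn1c in the same line, Kcnq1, a potassium channel subunit, was at 9.19 CPM, against 17.7 to 59.2 CPM in the other metastasis lines. Phlda2 at 6.65 CPM, Tssc4 at 11.3 CPM and Nap1l4 at 58.2 CPM were each the lowest of the 9 metastasis lines, and Slc22a18 at 2.35 CPM was the second lowest. Kcnq1ot1, the paternally expressed RNA antisense to Kcnq1, was at 59.2 CPM in that line, the highest of the 9 metastasis lines (lowest 32.5 CPM). It was not raised against the tumor line of mouse 4, which was at 69.9 CPM. Of the 6 genes looked up around Plagl1, Sf3b5 at 43.6 CPM, Stx11 at 4.78 CPM and Utrn at 59.9 CPM were the second lowest of the 9 metastasis lines there, and none was the lowest.

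In metastasis replicate 9, from the peritoneum of mouse 2, Zrsr1, a paternally expressed splicing factor gene that lies inside Commd1, was at 0.277 CPM. It was at 11.5 to 21.5 CPM in the other metastasis lines and at 8.60 CPM in the tumor line of mouse 2. Commd1, the gene around it, was at 29.1 CPM in that line, the highest of the 9 metastasis lines, and at 32.6 CPM in that tumor line. Cct4, Xpo1 and B3gnt2 beside it lay inside the ranges of the others. Gm28048, a gene model that overlaps Zrsr1, was at 8.49 CPM there, the second lowest of the 9, and at 21.8 CPM in that tumor line. Among the 7 tumor lines replicate 6 was the highest for Zrsr1 at 14.8 CPM and the lowest for Commd1 at 20.8 CPM. Sgce, the sarcoglycan epsilon gene, had 66 counts over the metastasis lines, mostly from the same replicate 9 at 1.44 CPM, and was at 0.109 CPM or less in the other metastasis lines and 0.159 CPM or less in tumor lines.

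**Figure D5:**
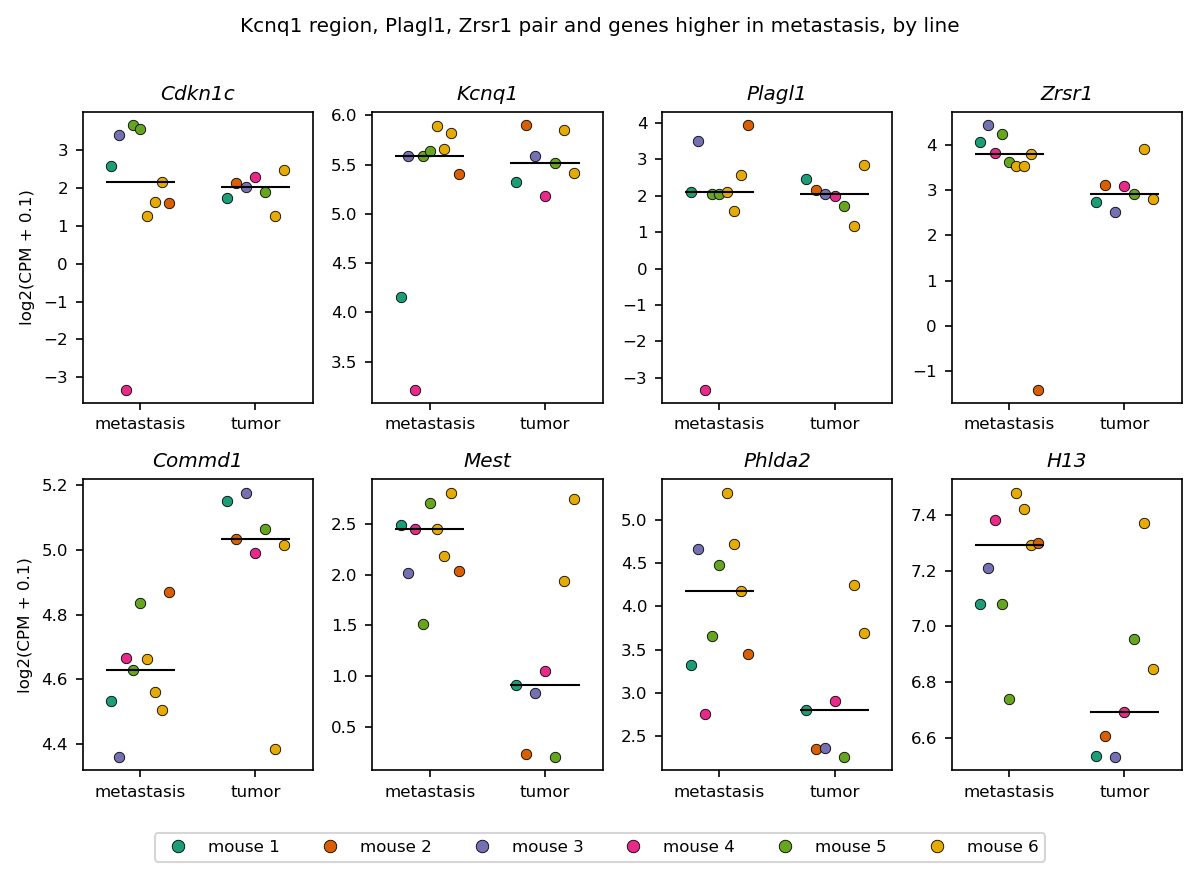
Level of 8 imprinted genes as log2(CPM + 0.1) in metastasis lines (left) and tumor lines (right); each point is 1 line, coloured by mouse, and the bar is the median. The lowest points of Cdkn1c and Plagl1 are metastasis replicate 3 of mouse 4 at 0 CPM, and that of Zrsr1 is metastasis replicate 9 of mouse 2 at 0.277 CPM.

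The rest of the tested genes did not pass the stage test. Kcnq1, Kcnq1ot1, Cdkn1c and Slc22a18 of the Igf2-Kcnq1 region had log2 fold changes of -0.40, -0.09, -0.02 and -0.68 (SE 0.23, 0.14, 0.73 and 0.29). Slc22a18, a transporter gene, was lower in 6 of 6 mice (edgeR adjusted p = 0.121, and 0.0401 without tumor replicate 7). Gnas, which encodes the stimulatory G protein alpha subunit, was at 150 ± 46.7 CPM in metastasis lines and 206 ± 40.2 CPM in tumor lines (SD, n = 9 and 7; log2 fold change -0.53, SE 0.20, edgeR adjusted p = 0.0934). Nnat, a membrane protein of neurons and endocrine cells, stayed at 0.418 to 1.16 CPM in metastasis lines and 0.483 to 1.31 CPM in tumor lines. Blcap, the gene around Nnat, had a log2 fold change of 0.30 (SE 0.15, edgeR adjusted p = 0.190), and 0.44 with an adjusted p of 0.0207 without tumor replicate 6. Impact, Inpp5f, Plagl1 and Zrsr1 had -0.35, -0.13, -0.01 and 0.43 (SE 0.18, 0.12, 0.65 and 0.57).

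No gene was at 0 in all 16 lines, but several were close to absent. Dlk1, H19, Igf2, Magel2, Asb4, Slc38a4, Nap1l5 and Zdbf2 each had fewer than 20 counts over all lines. H19, a noncoding RNA, and Igf2, the fetal growth factor beside it, had 12 counts each over the metastasis lines and 3 and 4 over the tumor lines. In the Peg10 region none of the 3 genes passed the filter: Peg10, a retrotransposon-derived placental gene, had 114 counts in metastasis lines and 44 in tumor lines (log2 fold change 1.06 without a filter, SE 0.48, edgeR adjusted p = 0.211), and Asb4 had 8 and 3. None of the 8 genes with fewer than 20 counts passed the test without a filter, and so few counts leave a difference undecided. Nap1l5 had 3 counts in metastasis lines and 16 in tumor lines and was lower in 5 of 6 mice. Its log2 fold change without a filter was -2.09 (SE 0.90, edgeR adjusted p = 0.181).

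Levels scaled for transcript length (TPM, the deposited length-normalised unit) put Gnas first at a median of 127 TPM in metastasis lines and 195 TPM in tumor lines. Commd1 (57.7 and 84.5 TPM), H13 (89.4 and 62.2 TPM) and Ube3a (26.8 and 28.4 TPM) were next in tumor lines. In tumor lines Gnas lay above Commd1 in range (156.6 to 283 and 52.0 to 97.4 TPM) and H13 above Ube3a (43.2 to 97.8 and 23.3 to 31.8 TPM), while Commd1 and H13 overlapped, as did Ube3a, Rian, Kcnq1, Igf2r and Peg3 in that order. Rian was the fifth of the 42 in tumor lines at a median of 22.3 TPM, and at 0.09 TPM in metastasis lines. Peg3 had medians of 0.17 TPM in metastasis lines and 19.1 TPM in tumor lines, and Grb10 of 0.01 and 4.05 TPM. TPM count the ribosomal RNA reads of a library in its total.

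No imprinted gene passed the threshold in the tests of site and of mouse. In edgeR's test that the 5 metastatic sites share 1 change from tumor lines, 0 of the 26 genes passed, with a lowest adjusted p of 0.9999, and 0% of all genes did, while 266 genes had an unadjusted p below 0.05. Lung and ovary had 1 line each. In the test of the 6 mice, 0 of the 26 passed, while 0.154% of all genes did and 2661 genes had an unadjusted p below 0.05. The lowest adjusted p of the imprinted genes was 0.232, for Dio3os. The values of the ovary line for Meg3 and Rian, of metastasis replicate 9 for Snrpn and Zrsr1 and of metastasis replicate 3 for Cdkn1c and Plagl1 are each those of 1 line.

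Of 44 other imprinted genes, 26 were tested, and 9 were lower and 1 higher, beside 9.92% and 6.59% of all genes. Herc3, a ubiquitin ligase gene, had the lowest p, with 3.60 to 7.70 CPM in metastasis lines, against 17.9 to 29.6 CPM in the tumor lines other than replicate 6, which was at 6.29 CPM. It fell by 1.74 on the log2 scale (SE 0.27, edgeR adjusted p = 0.0034). Snhg14, the long RNA that runs from Snrpn across Ube3a, fell by 2.38 (SE 0.41, edgeR adjusted p = 0.0050) and was highest among metastasis lines in replicate 9, at 3.78 CPM. Casd1, beside Sgce, fell by 1.17 (SE 0.23, edgeR adjusted p = 0.0081). Mcts2, which lies inside H13, was at 5.94 and 7.14 CPM in metastasis replicates 4 and 5, both of mouse 5, at 0.940 to 1.46 CPM in the other 7 metastasis lines, and at 0.980 CPM in tumor replicate 6 and 6.83 to 8.13 CPM in the other tumor lines. It fell by 2.03 (SE 0.45, edgeR adjusted p = 0.0126). Gatm, an enzyme of creatine synthesis, rose by 1.96 (SE 0.47, edgeR adjusted p = 0.0177), and tumor replicate 6 at 85.4 CPM was above every metastasis line.

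Of 23 genes that set or keep imprints, 20 were tested, and 3 were lower and 1 higher, shares near the 9.92% and 6.59% of all genes, so the values that follow describe single genes. Zfp57, whose protein protects imprints in embryos, was at 1.08 to 7.53 CPM in metastasis lines and 6.38 to 14.7 CPM in tumor lines, and fell by 1.33 on the log2 scale (SE 0.29, edgeR adjusted p = 0.0120). Zfp445, which encodes another such zinc finger protein, fell by 0.67 (SE 0.20, edgeR adjusted p = 0.0378). Arid4b, a chromatin protein, fell by 0.60 (SE 0.14, edgeR adjusted p = 0.0186), and Hells, a chromatin remodelling helicase, rose by 0.50 (SE 0.15, edgeR adjusted p = 0.0443). Tumor replicate 6 was not low for Zfp57, at 8.33 CPM, and was the lowest tumor line for Zfp445, at 56.8 CPM. Of 19 genes of insulin and IGF signalling, 15 were tested, and 2 were higher and 1 lower, beside 6.59% and 9.92% of all genes, and again single genes are described. Irs1, the docking protein of insulin and IGF1 receptors, was at 16.7 to 72.6 CPM in metastasis lines and 11.6 to 24.6 CPM in tumor lines, and rose by 1.53 (SE 0.27, edgeR adjusted p = 0.0053). Igf2bp3, an RNA-binding protein of fetal tissue, rose by 3.16 (SE 0.60, edgeR adjusted p = 0.0073). Igfbp7, a secreted binding protein, fell by 2.08 (SE 0.51, edgeR adjusted p = 0.0190).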

How the data were processed

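RNA was measured in 16 organoid lines, with 1 gene table and 1 isoform table per line. Per the labels' protocols, ribosomal RNA was depleted and stranded libraries were made. Per the submitters' processing notes, FastQC 0.11.8, STAR 2.6.0c and RSEM 1.3.1 were used on build GRCm38.p6. Whether counting used strand is not given in the sources used here. Per the file headers, the deposited gene tables hold expected counts and TPM. The isoform tables deposited by the authors give the same units per isoform, with each isoform's percent among all transcripts of its gene. RSEM divides reads among similar or overlapping features, so values of overlapping genes are uncertain.

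Gene identifiers without version were matched to GENCODE mouse release M21 (55394 of 55487). The 93 others held at most 0.00356% of the counts of a library. Expected counts were rounded and tested with edgeR 4.0.16 (R 4.3.3): TMM factors, filterByExpr by stage, a term per mouse and a term for stage, quasi-likelihood F tests, and Benjamini-Hochberg adjustment over all 15573 genes with a threshold of 0.05. Sites and mice were tested in the same way. CPM use TMM-scaled libraries. The log2 CPM behind differences per mouse and correlations has a prior count of 2. Count intervals and floors cover counting error only.

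The mouse labels pair the lines. Deviations of log2 CPM from the stage means correlated at 0.261 on average between lines of 1 mouse and at -0.116 between mice. Since the labels do not say whether lines of 1 mouse are separate cultures, p-values may in part reflect technical spread. Alternatives dropped the mouse term, used RLE size factors, other filters, DESeq2 1.42.0, limma 3.58.1 on log2 TPM or sums per mouse, handled ribosomal RNA in other ways, or left out each line and each mouse in turn. Scripts were tested on simulated data. The imprinted genes, the other gene lists and the neighbour rule were chosen with earlier results of these data known. Named genes are all 42 listed genes, at most 5 called genes of each further list, and the 3 nearest tested protein-coding genes in none of the imprinted lists on each side of a region with a called gene. Ddc, Atp10a, Copg2 and the printed ones of several RefSeq windows per gene were added outside that rule, with their values known. Neighbours of genes low or high in 1 line, and Snurf and Gm38393, were looked up after values were seen.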

Additional observations from a re-analysis of the deposited data

Results flagged for a closer look

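Dixon's test marked 10 of 51 groups of lines in which 1 line lay far from the others, where chance marks about 1 in 20 groups. Tumor replicate 6 was the marked line for Peg3 (2.92 CPM, next tumor line 45.2), Mkrn3 (0.0196 CPM, next 0.497), Snrpn (0.0980 CPM, next 4.13) and Commd1 (20.8 CPM, next 31.7) as the lowest tumor line, and for Blcap (20.4 CPM, next 12.5) as the highest. Metastasis replicate 8, the ovary line, was the highest metastasis line for Meg3 (0.450 CPM, next 0.0611) and Rian (5.41 CPM, next 0.306). Metastasis replicate 3 was the lowest for Cdkn1c (0 CPM, next 2.29) and Plagl1 (0 CPM, next 2.91). Metastasis replicate 9 was the lowest for Zrsr1 (0.277 CPM, next 11.5). The genes share lines, so these results are not independent of each other.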

How the results depend on the processing

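No imprinted gene past the threshold changed direction in the 850 values computed under 33 alternatives. Grb10, Dio3os, Peg3 and Usp29 passed under every alternative in which they were fitted. The count of lower genes (9) became 5 with metastasis replicate 4 and tumor replicate 2, which held the most ribosomal RNA, left out, and 5 without mouse 5, where fewer lines were fitted, and 6 to 10 when 1 line was left out. The count of higher genes (3) was 1 with no replicate block (no mouse term), 1 with counts summed per mouse and stage, 0 with limma on log2(TPM + 1) and 0 on log2(TPM + 0.1), and 0 without that pair of libraries. It was 1, 0, 0, 1 and 1 without mice 1, 2, 3, 4 and 5, and 0 to 4 when 1 line was left out. Without the replicate block 9 genes were lower, with Commd1 (adjusted p = 0.0371) gained and Snrpn lost. The test between mice gave 1 imprinted gene with no count filter, against 0 with the filter, and that between sites 0 throughout, also when 1 line was left out (0 to 0 for sites and 0 to 0 for mice). The cause of these differences was not tested. Of the 850 values, 101 no longer passed the threshold and 6 newly passed it. Genes with few counts, such as Mkrn3, Usp29 and Dio3os, limit the precision of their fold changes, and 8 of the 42 genes had fewer than 20 reads in all. Over all genes the alternatives called 481 (without mouse 5) to 2132 (without tumor replicate 6) lower and 238 (without that pair of libraries) to 1871 (DESeq2) higher.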
